A study of Mus musculus with 4 samples.

Results

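The 43 genes described here encode the machinery that copies DNA in S phase, together with E2F factors and cyclins that switch this machinery on. They were chosen by name, and all 43 were found on the array, on 56 probes. Each gene was represented by the probe with the highest mean signal over both channels, and 11 genes had several probes. The whole array carried 30199 gene symbols, of which 19619 had a probe whose mutant channel, or whose control channel, was clear of background on all 4 arrays. For all 43 replication genes both channels met this on all 4 arrays, so none entered through the filter in 1 group alone.

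Before S phase, the Mcm2 to Mcm7 helicase ring is loaded onto origins by Cdc6 and Cdt1, a step called licensing that geminin (Gmnn) blocks once S phase has begun. Cdc45 and the GINS complex then turn the ring into an active helicase, the primase and DNA polymerase alpha lay down primers, and DNA polymerases epsilon and delta extend them, held to DNA by the PCNA clamp that the RFC complex loads. Transcription of many of these genes is driven by E2F factors when cells leave G1. Heart muscle cells of the early embryo still divide, so these transcripts are present in the normal heart tube.

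The mutant embryos were Nkx2.5Cre; Hdac3f/f, in which Cre recombinase expressed from Nkx2-5, a gene of cardiac progenitors, recombines floxed alleles of Hdac3, a class I histone deacetylase. The controls were Hdac3f/f littermates for which no Cre is named, so that loss of Hdac3 and the presence of Cre cannot be told apart. Both groups were on a mixed CD1/B6/129 background and were dissected at embryonic day 9.5. RNA from 3 pooled mutant hearts and RNA from 3 pooled control hearts shared each 2-colour array, and the labels call the 4 arrays biological replicates, so n = 4 pairs of pools, which limits the precision of every value. Whole hearts also hold cells in which this Cre is not active, and in such bulk RNA fewer cells of a type and less RNA per cell cannot be told apart.

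Values are log2 ratios of mutant over control from the authors' deposited table, and 0 means equal signal. Their direction is taken from the names of its columns, which put mutant before wild type, and is not settled. According to the labels, Cy5 marks the mutant pool on each of the 4 arrays. Set against the scanner's Cy5 over Cy3 on bright probes, however, the deposited columns had slopes of 1.03 and 1.01 for arrays 1 and 2 but of -0.99 and -1.01 for arrays 3 and 4. Over all genes, arrays 1 and 2 correlated at 0.54 and arrays 3 and 4 at 0.45, while the correlations across these pairs were 0.054 (arrays 1 and 3), 0.016 (2 and 3), -0.12 (2 and 4) and -0.33 (1 and 4). Values are therefore given in the direction of the column names, and list medians and leading genes again with columns 3 and 4 turned (the turned reading), which reads every array as the labels do.

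Promoter sequence is shown first because E2F sites are what is classically known to tie these genes together. Of the 43 genes, 34 had an entry in RefSeq's promoter table (GRCm38.p6). In the 250 bases before the start site, 9 of the 34 (26.5%) held an E2F motif, spelled TTTCCCGC, TTTGGCGC, TTTCGCGC or TTTGCCGC and searched on both strands with overlaps allowed. The share was 2.16% over all 27025 genes of the table (583 genes). A gene with several start sites was counted if any of them had a match. Mcm7, E2f3 and Uhrf1 each had a further start site without an E2F match. Stretches around the matches are printed 5′ to 3′ on the gene's strand, with the matched bases in capitals.
Mcm5 (chr8:75109336-75109387, plus strand): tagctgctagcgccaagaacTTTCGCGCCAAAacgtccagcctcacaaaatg
Mcm6 (chr1:128359725-128359835, minus strand): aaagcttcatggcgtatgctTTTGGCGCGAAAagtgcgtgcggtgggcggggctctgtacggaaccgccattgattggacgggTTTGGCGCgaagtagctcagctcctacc
Mcm7 (chr5:138172021-138172068, minus strand): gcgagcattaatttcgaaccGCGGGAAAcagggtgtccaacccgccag
Cdc6 (chr11:98907993-98908040, plus strand): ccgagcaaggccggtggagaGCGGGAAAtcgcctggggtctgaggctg
Gins3 (chr8:95633498-95633545, plus strand): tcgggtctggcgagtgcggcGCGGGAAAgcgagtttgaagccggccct
Rfc3 (chr5:151651209-151651238, minus strand): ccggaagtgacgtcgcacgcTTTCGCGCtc
Pola1 (chrX:93632266-93632313, minus strand): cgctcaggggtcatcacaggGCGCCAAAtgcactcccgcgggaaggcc
E2f3 (chr13:29986064-29986094, minus strand): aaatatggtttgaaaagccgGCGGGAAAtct
Uhrf1 (chr17:56304108-56304155, plus strand): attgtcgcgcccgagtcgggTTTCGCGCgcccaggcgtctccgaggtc
Mcm5 and Mcm6 hold overlapping matches on opposite strands, and Mcm6 holds a further match closer to its start site. A CCAAT box was found in 21 of the 34 (61.8%, against 37.5% of all genes), and a CHR element (TTTGAA or TTCGAA), a motif of late cell cycle genes, in 8 (23.5%, against 19.6%). A match describes these letters and shows no binding. The 9 genes with an E2F match had a median log2 ratio of -0.085, with 6 below 0, and the 25 without had a median of -0.049, with 21 below 0. The means of the 2 sets overlapped, from -0.29 to 0.053 with a match and from -0.35 to 0.058 without. Of the tested genes that had a promoter entry, 204 of 399 with a match were below 0 (median -0.0062) and 5259 of 11030 without (median 0.0078). Medians by motif were not taken in the turned reading. There Mcm5 was at 0.10, Gins3 at 0.048, Rfc3 at 0.33, Pola1 at 0.0765 and E2f3 at 0.1565. Mcm6 was at -0.20, Mcm7 at -0.28, Cdc6 at -0.034 and Uhrf1 at -0.22.

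The targeted gene was read by 1 probe. Hdac3 had log2 ratios of -0.22, -0.50, -0.52 and -1.15 on arrays 1 to 4, with a mean of -0.60 ± 0.39 (SD, n = 4). It was below 0 on all 4 arrays and did not pass the test over all genes (limma, adjusted p = 0.586). The mean was 0.24 with columns 3 and 4 turned. No source used here places the probe relative to the floxed part, and a probe outside that part would not check the deletion.

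No replication gene passed the test of mutant against control pools over all genes. With limma and Benjamini-Hochberg adjustment over 19619 genes, 0 of the 43 passed an adjusted p of 0.05 in either direction (smallest 0.586), as did 0 of all genes, a share of 0% lower and 0% higher. At an unadjusted p under 0.05, 2 of the 43 were lower, Pola2 and Mcm4, and 0 were higher, beside 4.58% of all genes lower and 3.88% higher. The count of 2 is near that background. The 95% interval of the mean included 0 for 41 of the 43, and the SD over arrays was larger than the size of the mean for 38.

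As a list, the genes sat slightly below 0. The median of their mean log2 ratios was -0.074, while that of all genes was 0.011, and 35 of 43 had a mean below 0, beside 46.5% of all genes. With scanner intensities and median centring in place of the table, the median was 0.042 and 16 of 43 were below 0, where the median of all genes was 0.066 and 31.7% were below 0. The sizes were small, with 26 genes within 0.1 of 0, 9 between -0.2 and -0.1, 8 below -0.2 and 0 above 0.1. The quartiles of their means were -0.14 and -0.015, beside -0.083 and 0.093 for all genes, whose sizes were thus small too. The shares of all genes in the ranges above were not taken. Only Mcm4, Pola2, Pole2 and Rpa1 were below 0 on all 4 arrays and 0 genes were above 0 on all 4, against 9.72% and 10% of all genes. The count of 4 is near that share of all genes and does not set the list apart. These counts use 1 probe per gene. A dimmer probe of E2f3 was above 0 on all 4 arrays, with a mean of 0.3. Dimmer probes of Ccne1 and Rfc4 were below 0 on all 4. With columns 3 and 4 turned, the median was -0.021 and 24 of 43 were below 0. In that reading the median of all genes was -0.0002, and 9813 of 19619 were below 0. The list thus lay closer to all genes there than in the direction of the column names.

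**Figure D1:**
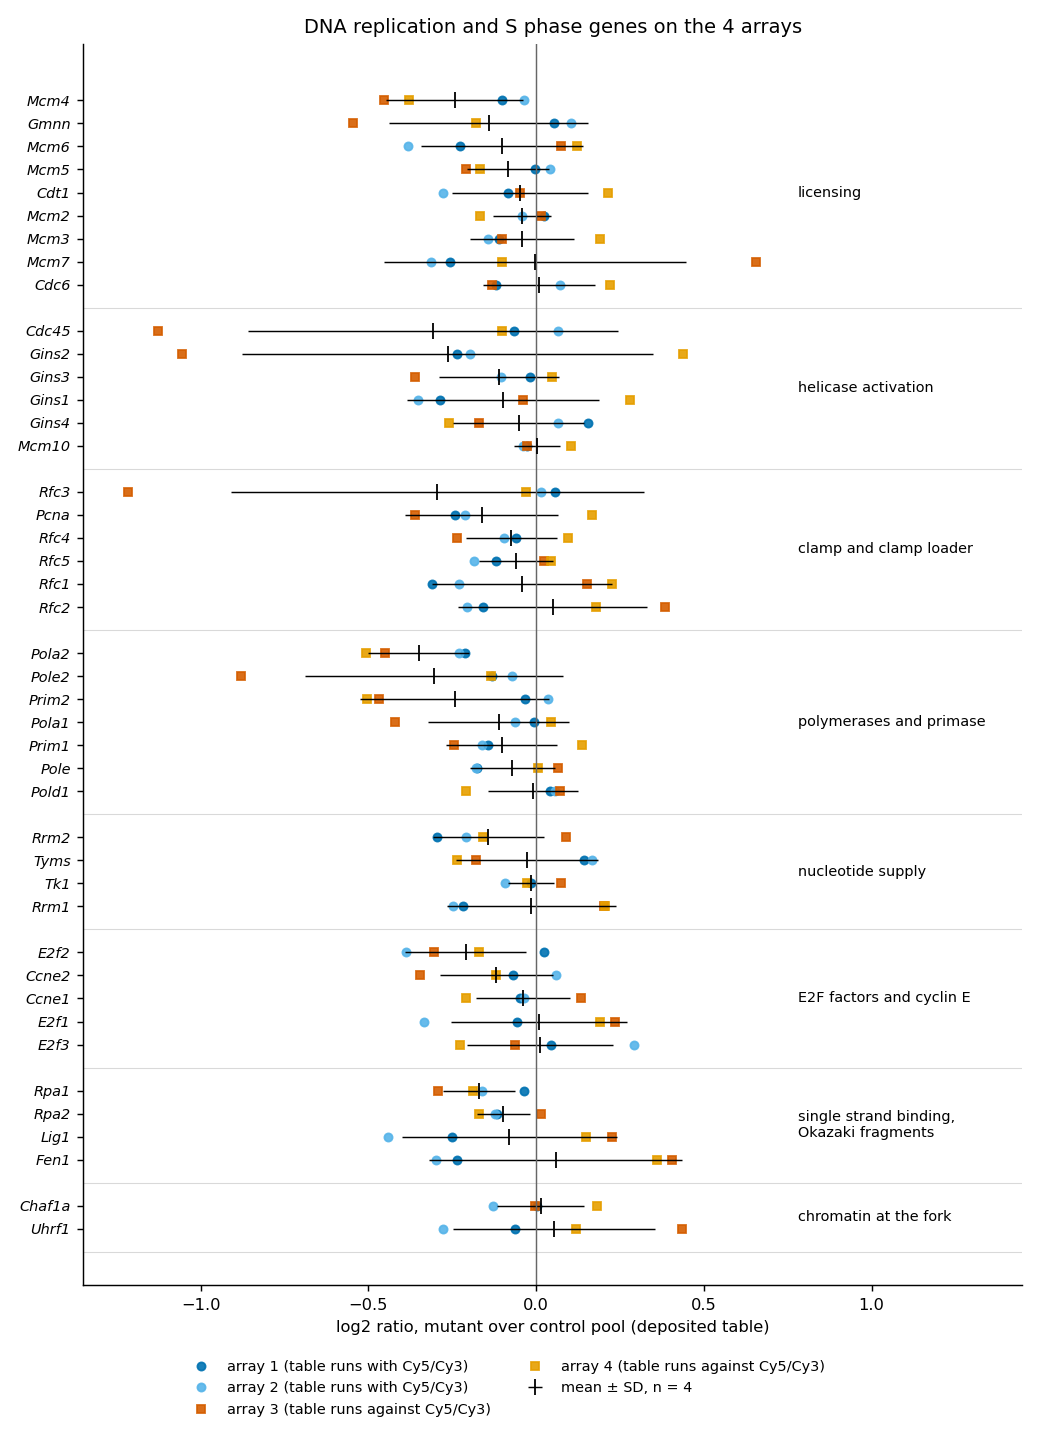
Log2 ratio of mutant over control (horizontal axis, deposited table) for each of the 43 genes, grouped by role, with circles for arrays 1 and 2, squares for arrays 3 and 4, and a tick with a line for the mean ± SD (n = 4). Most means lie between -0.2 and 0.1, and the SD line crosses 0 for 38 of the 43 genes.

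The 9 licensing genes had a median log2 ratio of -0.049, and 8 had a mean below 0 (turned reading -0.034 and 5). Mcm4, a subunit of the helicase ring, gave -0.10, -0.036, -0.46 and -0.38 on arrays 1 to 4, a mean of -0.24 ± 0.20 (SD, n = 4; limma, adjusted p = 0.586). All 4 values were below 0, but those of arrays 3 and 4 were lower than those of arrays 1 and 2, and with columns 3 and 4 turned the mean was 0.17. Its probe lies at chr16:15624372-15624431 in mm9. Its scanner signals on array 3 were 11582 in the mutant and 16406 in the control channel.

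The other ring subunits had means closer to 0 than Mcm4. Mcm2 (mean -0.043), Mcm3 (-0.041) and Mcm7 (-0.0032) were near 0, Mcm5 was at -0.085 and Mcm6 at -0.10. Mcm6 read -0.23 and -0.38 on arrays 1 and 2 but 0.075 and 0.12 on arrays 3 and 4. Mcm7 ranged from -0.31 on array 2 to 0.66 on array 3. The 6 subunits of the ring had values of both signs on each of the 4 arrays. The loading factor Cdc6 was the highest of the group, with -0.12, 0.070, -0.13 and 0.22 and a mean of 0.0093, while Cdt1 was at -0.049. A dimmer second probe of Cdc6 had a mean of 0.11. Gmnn, the inhibitor of loading, was at -0.14 ± 0.30, above 0 on arrays 1 and 2 and below 0 on arrays 3 and 4.

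Among the 6 helicase activation genes the median was -0.10, with 5 below 0 (turned reading 0.047 and 2), and array 3 set the lowest means. Cdc45, which joins the ring as part of the active helicase, gave -0.066, 0.066, -1.13 and -0.10, a mean of -0.31 ± 0.55. The values of the other arrays lie close to 0, and without array 3 the mean was -0.034. Gins2, a GINS subunit, gave -0.24, -0.20, -1.06 and 0.44, with arrays 3 and 4 at opposite ends, and its mean of -0.26 became 0.0007 without array 3. The other GINS genes had means of -0.099 (Gins1), -0.11 (Gins3) and -0.052 (Gins4), and Mcm10, which helps start the helicase, had 0.0030 ± 0.068. The probe of Cdc45 was dim on array 3, with a processed signal of 78.8 in the mutant and 207.0 in the control channel, whereas that of Gins2 read 922.0 and 1928.0.

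The clamp and its loader had a median of -0.067, with 5 of 6 means below 0 (turned reading -0.079 and 5). Pcna, the sliding clamp, gave -0.24, -0.21, -0.36 and 0.17, a mean of -0.16 ± 0.23 (limma, adjusted p = 0.653). It was below 0 on 3 arrays and above 0 on array 4, and its mean was -0.096 without array 3, -0.27 without array 4 and -0.013 with median centring. The loader subunit Rfc3 gave 0.057, 0.014, -1.22 and -0.030, so that its mean of -0.29 ± 0.62 rested on array 3 and was 0.014 without it. Rfc2 was the highest of the group, with -0.16, -0.21, 0.39 and 0.18 and a mean of 0.049 ± 0.28. Rfc1, the large subunit, gave -0.31, -0.23, 0.15 and 0.23. Both Rfc1 and Rfc2 were thus below 0 on arrays 1 and 2 and above 0 on arrays 3 and 4, as was Rfc5 by smaller amounts (mean -0.060). Rfc4 was at -0.074, and its dimmer second probe at -0.18.

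All 7 polymerase and primase genes had means below 0, with a median of -0.11, but in the turned reading the median was 0.077 and 2 of 7 were below 0. Pola2, the B subunit of DNA polymerase alpha, had the lowest mean and the smallest p of the 43 genes. Its ratios were -0.21, -0.23, -0.45 and -0.51, a mean of -0.35 ± 0.15 (SD, n = 4; limma, adjusted p = 0.586), or 0.784 of the control level. All 4 values were below 0, and leaving out any array left the mean between -0.396 and -0.298. With columns 3 and 4 turned the mean was 0.13. The probe, at chr19:5946484-5946543 in mm9, was dim, with processed signals of 82.2 against 96.4 (mutant against control) on array 1, 77.2 against 94.6 on array 2, 92.9 against 136.7 on array 3 and 159.5 against 234.1 on array 4. After normexp correction with an offset of 50, which draws dim probes towards 0, the mean was -0.27.

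The other subunits of the same enzymes lay closer to 0. Pola1, the catalytic subunit of polymerase alpha, was at -0.11 ± 0.21, and Prim1, the catalytic primase subunit, at -0.10 ± 0.17. Prim2, the large primase subunit, gave -0.034, 0.034, -0.47 and -0.50, a mean of -0.24 ± 0.28 (limma, adjusted p = 0.608). It was at 0 on average over arrays 1 and 2, and its dimmer second probe had a mean of 0.0075. Pole2, a subunit of the leading strand polymerase epsilon, was below 0 on all arrays, with -0.13, -0.073, -0.88 and -0.13. Its mean of -0.30 ± 0.38 was -0.11 without array 3. For the catalytic subunit Pole the mean was -0.071 by the brightest probe, 0.11 and 0.090 by the other probes. The probe at 0.090 was very dim, with a mean signal of 15.3 and a mutant channel above background on 2 arrays. It was above 0 only on array 3 (0.503). Pold1, the catalytic subunit of the lagging strand polymerase delta, was at -0.010 ± 0.13.

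The 4 genes of nucleotide supply all had means below 0, with a median of -0.021 (turned reading -0.075, with 3 below 0). Rrm2, the ribonucleotide reductase subunit whose level limits the enzyme in S phase, gave -0.30, -0.21, 0.090 and -0.16, a mean of -0.14 ± 0.17 (limma, adjusted p = 0.650). It was below 0 on 3 of the 4 arrays, and its mean was -0.092 without array 1, -0.22 without array 3 and -0.019 with median centring. Its partner Rrm1 gave -0.22, -0.25, 0.20 and 0.21, so that arrays of the 2 kinds cancelled to -0.015. The thymidylate synthase Tyms showed the opposite arrangement, with 0.14, 0.17, -0.18 and -0.24 and a mean of -0.026, and the thymidine kinase Tk1 was at -0.015 ± 0.069. A dimmer Tk1 probe past the filter had a mean of -0.27, with -0.96 on array 3.

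Of the E2F factors and E cyclins, which act upstream of the other roles, 3 of 5 means were below 0, and their median was -0.040 (turned reading 2 of 5 and 0.028). E2f2 gave 0.024, -0.39, -0.31 and -0.17, a mean of -0.21 ± 0.18 (limma, adjusted p = 0.589), and was below 0 on 3 arrays. Its mean with columns 3 and 4 turned was 0.028. E2f1 was at 0.0082 ± 0.26, with -0.056 and -0.34 on arrays 1 and 2 and 0.23 and 0.19 on arrays 3 and 4. E2f3 had the highest mean of the group, 0.012 ± 0.22, with 0.044, 0.29, -0.063 and -0.23. Its dimmer second probe gave 0.073, 0.018, 0.925 and 0.184, a mean of 0.3, and was above 0 on every array. The means of the 3 activator E2F genes thus lay on both sides of 0. Ccne1 was at -0.040, and its dimmer second probe at -0.31, with -1.026 on array 3. Ccne2 was at -0.12 by a dim probe, with processed signals of 39.7 in the mutant and 42.7 in the control channel on array 1.

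Single strand binding and Okazaki fragment genes had a median of -0.089, with 3 of 4 below 0 (turned reading -0.14 and 3). Rpa1, the large subunit of the protein that coats unwound DNA, gave -0.036, -0.16, -0.29 and -0.19, a mean of -0.17 ± 0.11 (limma, adjusted p = 0.600), and its second probe had a mean of -0.13. It was below 0 on all arrays by the brighter probe. Rpa2 was at -0.098 ± 0.079. The flap endonuclease Fen1 had the highest mean of the 43 genes, 0.058 ± 0.38, from -0.24 and -0.30 on arrays 1 and 2 and 0.41 and 0.36 on arrays 3 and 4. Lig1, the ligase that joins Okazaki fragments, gave -0.25, -0.44, 0.23 and 0.15.

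Both genes of chromatin assembly and methylation at the fork had means above 0, and both were below 0 in the turned reading (-0.22 for Uhrf1 and -0.077 for Chaf1a). Uhrf1, which brings the maintenance methyltransferase to newly copied DNA, gave -0.064, -0.28, 0.43 and 0.12, a mean of 0.053 ± 0.30, and its second probe had a mean of -0.029. Chaf1a, a histone chaperone subunit, gave 0.0020, -0.13, -0.0020 and 0.18, a mean of 0.013 ± 0.13. Neither mean was larger than its spread.

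Many of these genes read differently on arrays 1 and 2 than on arrays 3 and 4. Over the 43 genes arrays 1 and 2 correlated at 0.68 and arrays 3 and 4 at 0.22, while the correlations across these pairs ran from -0.26 to -0.49. These are descriptions across genes, which share arrays and are not independent. The mean over arrays 1 and 2 ran from -0.35 (Lig1) to 0.17 (E2f3), and the mean over arrays 3 and 4 from -0.62 (Rfc3) to 0.38 (Fen1). Their correlation over the 43 genes was -0.53.

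**Figure D2:**
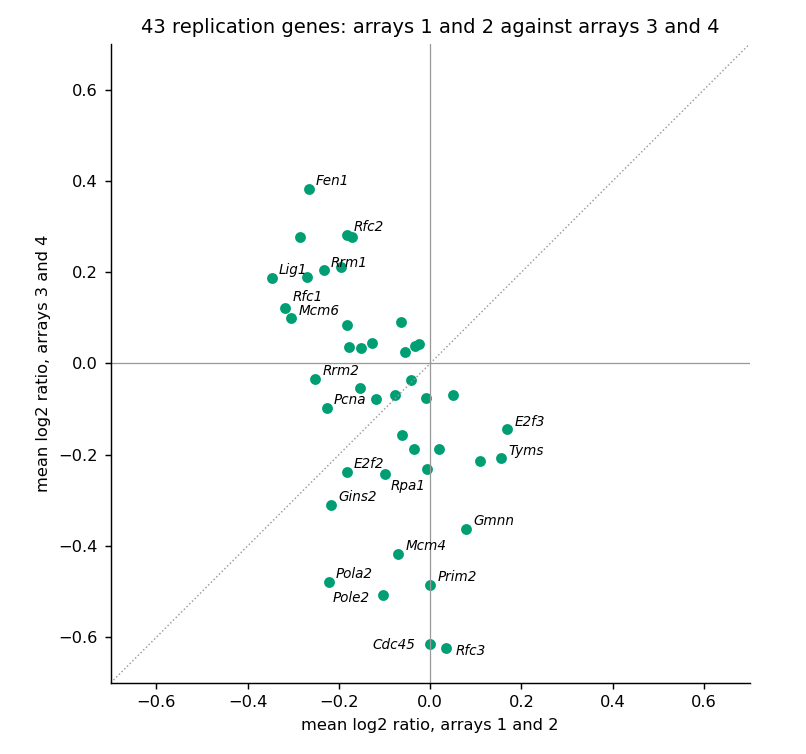
Mean log2 ratio over arrays 1 and 2 (horizontal axis) against that over arrays 3 and 4 (vertical axis), 1 point per replication gene, with the dotted line where both would be equal. Fen1, Lig1 and Rrm1 lie at upper left and Tyms and E2f3 at lower right, while Pola2 is below 0 on both axes.

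Of the 43 genes, 10 were below 0 on both of arrays 1 and 2 and above 0 on both of arrays 3 and 4. They were Mcm6, Rfc1, Rfc2, Rfc5, Pole, Rrm1, E2f1, Fen1, Lig1 and Uhrf1, a share of 23.3% beside 13.7% of all genes. The reverse arrangement held for 5, Gmnn, Gins4, Rfc3, Tyms and E2f3, a share of 11.6% beside 13.2%. With columns 3 and 4 turned, these genes have 1 sign on all arrays. In that reading 9 of the 43 were lower at an unadjusted p under 0.05, namely Fen1, Rrm1, Rfc1, Lig1, Rfc2, E2f1, Uhrf1, Mcm6 and Gins1, and 2 were higher, Tyms and Gins4, beside 7.52% of all genes lower and 7.57% higher. Fen1 led with a mean of -0.32 (limma, adjusted p = 0.119), and 0 of the 43 passed the adjusted threshold. Pola2 and Mcm4 were not among them, at 0.13 and 0.17.

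Arrays 1 and 2, on which the labels and the deposited table give the same direction, placed the genes below 0 by themselves. Their median over the 43 genes was -0.10, with 34 below 0, while the median of all genes was 0.0015, with 49.6% below 0. By limma on these 2 arrays alone, 13 of the 43 were lower at an unadjusted p under 0.05 and 0 were higher, beside 12.8% of all genes lower and 13.9% higher. The 13 were Gins1, Lig1, Mcm7, Mcm6, Fen1, Rfc1, Rrm2, Rrm1, Pcna, Pola2, Gins2, Rfc2 and Pole, with means from -0.35 to -0.18, and the smallest adjusted p was 0.0866 (Gins1). On arrays 3 and 4 alone the median was -0.070 and 25 were below 0, beside 0.007 and 48.7% for all genes. Dye bias does not cancel within either pair of arrays, and its part in these values was not tested.

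By array, the medians over the 43 genes were -0.070, -0.13, -0.063 and 0.0060, and 34, 32, 26 and 21 genes were below 0. Of the 19619 genes tested, 9756, 9652, 9494 and 9667 were below 0, with medians of 0.001, 0.003, 0.011 and 0.003. The spread over the 43 genes differed more than their medians, with an SD of 0.12, 0.16, 0.40 and 0.22. Array 3 held the value farthest from 0 for 18 of the 43 genes, and the deposited column of array 3 was also the widest over all its probes (SD of 0.37, against 0.21 to 0.24 on the other arrays). Without array 4 the median of the list was -0.119.

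**Figure D3:**
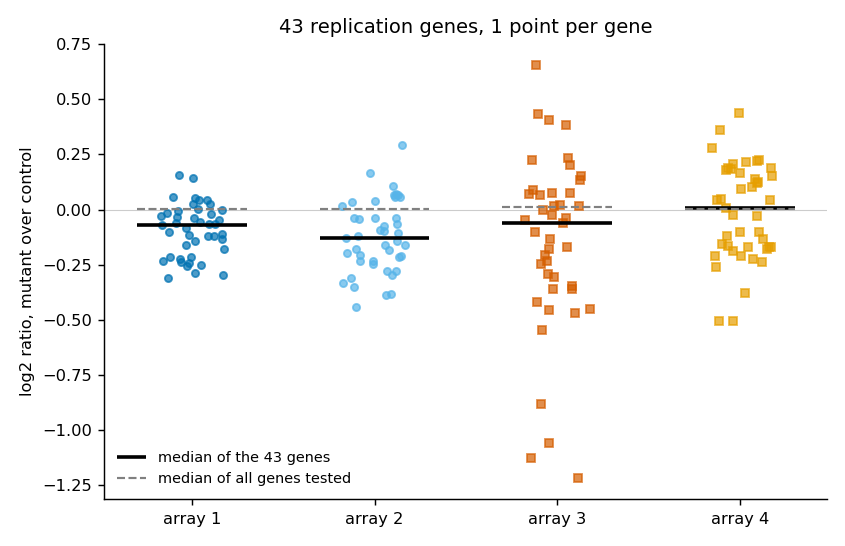
Log2 ratio of mutant over control (vertical axis) of the 43 genes on each of the 4 arrays, 1 point per gene, with the median of the 43 genes as a solid line and that of all genes tested as a dashed line. The medians lie between -0.13 and 0.0060, and points on array 3 spread from -1.22 to 0.66.

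Other genes of replication and S phase, 62 genes outside the 43 such as origin recognition, fork protection and histone supply genes, had a median of -0.078, and 46 had a mean below 0. In the turned reading the median was 0.026 and 26 were below 0. In the direction of the column names 9 of the 62 were lower and 0 higher at an unadjusted p under 0.05, beside 4.58% and 3.88% of all genes, and 0 passed the adjusted threshold. Slbp, which binds the stem-loop of replication-dependent histone transcripts, gave -0.45, -0.29, -1.20 and -0.52, a mean of -0.62 ± 0.40 (SD, n = 4; limma, adjusted p = 0.586). Its second probe had a mean of -0.62, and all 4 arrays were below 0. Dna2, a nuclease and helicase of Okazaki fragment processing, gave -0.23, -0.28, -0.37 and -0.25, a mean of -0.28 with the small SD of 0.062, and Rrm2b, the p53-induced ribonucleotide reductase subunit, was at -0.30 ± 0.13. The Rrm2b probe was dim, with processed signals from 56.6 to 111.7, and its mean was -0.19 after normexp correction and loess. The turned reading gave 0.25 for Slbp, 0.026 for Dna2 and 0.016 for Rrm2b.

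The 30 mitosis genes had a median of -0.065, with 24 below 0, and in the turned reading a median of 0.025, with 11 below 0. At an unadjusted p under 0.05, 5 were lower and 0 higher, beside the same shares of all genes. Cdc25b, an activator of mitotic CDK, was at -0.30 ± 0.14, the centrosomal kinase Nek2 at -0.29 ± 0.19 and the checkpoint kinase Ttk at -0.38 ± 0.37, against 0.027, 0.065 and 0.31 in the turned reading. Of the 15 genes of CDK inhibitors, D cyclins and the Rb family, 14 were measured, with a median of -0.057 and 10 below 0 (turned reading -0.033 and 8), and 2 were lower and 1 higher at an unadjusted p under 0.05. The shares of all genes are those given for mitosis. Rbl2, a pocket protein that represses E2F targets in resting cells, was at -0.42 ± 0.22 and Rb1 at -0.25 ± 0.11. The Rbl2 probe was dim, with processed signals from 35.4 to 131.4, and its mean was -0.30 after normexp correction and loess. Cdkn1a, the CDK inhibitor p21, was above 0 on all arrays, with 0.29, 0.13, 0.57 and 0.29 and a mean of 0.32 ± 0.18 (limma, adjusted p = 0.586), but another probe past the filter had a mean of -0.090. The turned reading gave 0.13 for Rbl2, -0.036 for Rb1 and -0.11 for Cdkn1a.

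Lists of cell type markers had medians farther from 0 than the replication genes on most arrays, and their medians also depended on the direction. All 14 cardiomyocyte markers were measured, with list medians of 0.10, 0.26, -0.20 and -0.35 on arrays 1 to 4, a sign that went with the orientation of the table, and summed signals of 927880 to 1254838 in the mutant and 825558 to 1285284 in the control channels. The median of their means was 0.017, or 0.22 in the turned reading. All 14 primitive erythroid markers were measured, 12 had a mean below 0, with a median of -0.28 (turned reading 7 and 0.0072), and the list medians by array were 0.012, -0.51, -0.31 and -0.32, while their summed processed signal ran from 240019 to 378668 in the mutant and from 344706 to 477197 in the control channels. Of 13 endoderm markers 8 were measured and all 8 had a mean above 0, with a median of 0.32 (turned reading 0.061, with 3 below 0). Their summed signal over all 13 ran from 17539 to 38822 in the mutant and from 17600 to 29157 in the control channels, and Foxa1, Apoa1 and Shh were not well above background in any channel. The 10 endocardial and endothelial markers had a median of 0.22, or -0.032 in the turned reading, with summed signals of 8467 to 24734 in the mutant and 7296 to 12495 in the control channels. The part of cell composition in the replication ratios was not tested.

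**Figure D4:**
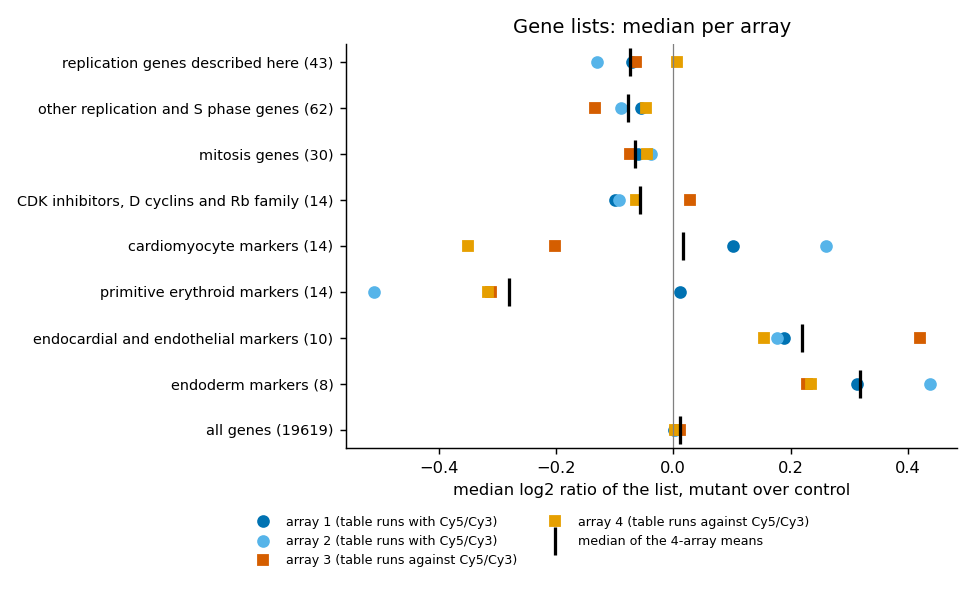
Median log2 ratio of mutant over control of each gene list (horizontal axis) on each array, with circles for arrays 1 and 2, squares for arrays 3 and 4 and a tick for the median of the 4-array means, and the number of measured genes in brackets. The replication list stays between -0.13 and 0.0060 on every array, while the erythroid list runs from -0.51 to 0.012 and the cardiomyocyte list from -0.35 to 0.26.

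For replicates 2 to 4 the description field speaks of embryonic stem cells, although every other field gives hearts. All 14 cardiomyocyte markers passed the background filter. Of 9 pluripotency markers, 5 passed the filter, so part of this list was detected, with a median log2 ratio of 0.16 (turned reading -0.021). The summed signal over all 9 ran from 1873 to 4893 in the mutant and from 1835 to 2754 in the control channels. Pou5f1, Dppa3 and Fgf4 were not well above background in any channel of any array.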

How the data were processed

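Scanner files from 4 arrays hold spot intensity for Cy3 and Cy5 as extracted by Agilent Feature Extraction 11.5.1.1, per the file headers (8.5.1.1 in the submitters' processing notes). They also hold processed intensity, background-subtracted and dye-normalized, per the file headers, and its log10 ratio of Cy5 over Cy3, deposited with it. The table deposited by the authors gives log2 ratios, for which no source used here names the normalization. It supplied the log2 ratios here unless another source is named, matched by probe name (39408 of 39429 probes). Gene names, background calls and signals came from the scanner files. The column medians of the deposited table were -0.027, -0.017, 0.021 and 0.025.

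A probe had to be marked above background on all 4 arrays in at least 1 of the channels (25484 probes), and a gene was its brightest probe. No spot was saturated, and 66.6% to 71.2% of the probes in a channel were above background. Arrays shared 1 slide and scan. Ratios were tested against 0 with limma 3.58.1 (lmFit, eBayes) in R 4.3.3, with Benjamini-Hochberg adjustment over 19619 genes. The steps were tested on simulated data. With 4 pairs the smallest two-sided exact sign test p is 0.125. Probe names and coordinates are those of the array design (mm9), and exon positions were not used here. Promoters are RefSeq's (GRCm38.p6). Alternatives used scanner intensities with normexp (offset 50) and loess or median centring.

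Genes named were the 8 of smallest p, the lowest and highest of each role, those whose probes differ in sign, and 3 of smallest p from each related list; the remaining genes of the 43 are given as values. The genes, lists and signs were chosen with earlier results of these data known, Hdac3 included.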

Additional observations from a re-analysis of the deposited data

Results flagged for a closer look

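Among the 44 values tested over 4 arrays, 6 had 1 array far from the other 3. The threshold used would flag about 1 in 20 independent values, but these genes share the same 4 arrays. The share over all genes was not taken, so the 6 cannot be read as particular to this list. On array 3, Cdc45 was at -1.128 (other arrays -0.101 to 0.066), Rfc3 at -1.218 (-0.030 to 0.057) and Pole2 at -0.88 (-0.134 to -0.073). Array 4 gave the remaining 3, with Mcm3 at 0.189 (other arrays -0.143 to -0.101), Mcm10 at 0.104 (-0.039 to -0.026) and Pold1 at -0.21 (0.042 to 0.071). Without the separate array the means were -0.0337 for Cdc45, 0.0137 for Rfc3, -0.113 for Pole2, -0.118 for Mcm3, -0.0307 for Mcm10 and 0.0567 for Pold1.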

How the results depend on the processing

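0 of the 43 genes passed the adjusted threshold under any alternative run, and 0 of all genes passed in the main analysis. Of all genes, 98 higher and 9 lower passed with loess and all arrays as labelled, 133 and 6 with columns 3 and 4 turned (added after seeing the data), 27 and 7 on arrays 1 and 2 only, 2 and 2 with array weights, and 0 to 2 higher over leaving out each replicate (2 without replicate 1). Of the 43, 2 were lower at an unadjusted p under 0.05, beside 4.58% of all genes. This became 0 with median centring (1.33% of all genes), 1 with the Feature Extraction log ratio (4.53%), 1 with columns centred (4.31%), 9 as labelled (8.78%), 9 turned (7.52%), 4 with a dye term (8.03%), 13 on arrays 1 and 2 (12.8%) and 9 with array weights (10.7%). The weights were 3.25, 2.18, 0.28 and 0.50 for arrays 1 to 4, so arrays 1 and 2 dominate that setting. The count was 0 without the replicate block (1.62%), that is with both channels as separate samples. That setting used scanner intensities with loess and quantile scaling between arrays, so data source and pairing changed together. Its median was -0.0741, the same as with paired scanner loess, where 2 genes were lower (4.1%). Higher genes went from 0 to 2 turned and 1 on arrays 3 and 4. The median of the 43 was 0.0418 with median centring, which moved that of all genes to 0.0657 and left 16 below 0, and -0.015 as labelled. The median of all genes as labelled was -0.018. Leaving out each replicate gave -0.119 to -0.0613.

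Signs of named genes turned as follows, and the cause was not tested. As labelled and turned, respectively, Mcm4 was at 0.1721 and 0.1737, Cdc6 at -0.0402 and -0.0338, Mcm10 at -0.0343 and -0.036, Cdc45 at 0.17 and 0.3073, Rfc2 at -0.228 and -0.2322, Rfc3 at 0.2939 and 0.3298, Pola2 at 0.0803 and 0.1285, Pole2 at 0.1735 and 0.2023, Pold1 at 0.0571 and 0.0595, Prim2 at 0.2246 and 0.2425, E2f2 at 0.0214 and 0.0278, Rpa1 at 0.0688 and 0.0712, Fen1 at -0.3229 and -0.3248, Uhrf1 at -0.222 and -0.2242 and Chaf1a at -0.0737 and -0.0772. On arrays 1 and 2, Cdc6 was at -0.0245, Mcm10 -0.033, Rfc2 -0.183, Rfc3 0.0355, Pold1 0.0495, Fen1 -0.2665, Uhrf1 -0.1715 and Chaf1a -0.064, and with array weights Cdc6 was at -0.0264, Mcm10 -0.0207, Rfc2 -0.124, Pold1 0.0284, Fen1 -0.1801, Uhrf1 -0.1018 and Chaf1a -0.0299. On arrays 3 and 4, Pole was at 0.036, Rrm1 0.204 and E2f3 -0.1445. Median centring gave Pole 0.0257, Pold1 0.088 and Rrm1 0.1089, the Feature Extraction log ratio Pold1 0.0229 and Chaf1a -0.0041, and the mean of probes Pole 0.0419. Over leaving out each replicate, Cdc6 ran from -0.0607 to 0.0567, Mcm10 from -0.0307 to 0.017, Rfc2 from -0.0627 to 0.1347, Rfc3 from -0.4113 to 0.0137, Pold1 from -0.037 to 0.0567, Rrm1 from -0.0877 to 0.0637, E2f3 from -0.0817 to 0.0913, Fen1 from -0.0573 to 0.177, Uhrf1 from -0.0743 to 0.1633 and Chaf1a from -0.0433 to 0.061. Pcna and Rrm2 kept their sign under all alternatives run, but with median centring they were at -0.0125 and -0.0192. Dim probes such as Pola2 and Cdc45 lie nearest to background.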
